A study of Homo sapiens with 6 samples.

Results

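The transcriptional coactivators YAP1 and TAZ (gene WWTR1), their DNA-binding partner TEAD1 and 7 genes long known as readouts of the YAP, TAZ and TEAD complex were examined in HepG2-hCAR cells that had been given doxycycline or vehicle. The 10 genes were chosen by name, with earlier results of these data known. They were YAP1, WWTR1, TEAD1, ANKRD1, CYR61 (also called CCN1), CTGF (also called CCN2), AMOTL1, AMOTL2, LATS2 and AXL. Of these, 9 were found by symbol among the 11456 genes of the expression table, and all 9 passed the filter on low values. AMOTL1 was not analysed here.

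HepG2-hCAR cells are human liver carcinoma cells of the line HepG2 that carry, in a lentivirus, a full-length cDNA encoding human CAR (the constitutive androstane receptor, gene NR1I3) that doxycycline switches on. They were selected with puromycin, and the line grew from 1 cell, so every library comes from 1 clone. The doxycycline group (3 libraries) had 1 µg/ml of the antibiotic for 72 h, and the vehicle group (3 libraries) had vehicle control for the same time and carried the same construct. Cells lacking the receptor cDNA were not among the groups, so what doxycycline does by itself and what the receptor does cannot be told apart. Separate cultures are not stated in the labels, and the p-values may therefore cover technical spread only.

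YAP and TAZ are coactivators without a DNA-binding domain of their own, and they reach DNA mainly through the TEAD family of transcription factors. The Hippo kinases MST1 and MST2 (genes STK4 and STK3) activate the kinases LATS1 and LATS2, which phosphorylate YAP and TAZ. Phosphorylation keeps YAP and TAZ out of the nucleus and leads to their degradation, and angiomotins hold them at junctions and the actin cytoskeleton. In the liver this pathway is known for limiting organ size and for keeping hepatocytes apart from the bile duct fate. Much of this control acts on the protein and its place in the cell, which mRNA levels do not show.

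TEAD factors recognize the letters GGAATG. The RefSeq table of promoter windows (250 bases before to 50 bases from the transcript start, build GRCh38.p14) held 11 windows for 8 of the 10 genes, and GGAATG on either strand was found in 6 windows, of 6 genes. CYR61 and TEAD1 had no window and were not searched, and the windows of WWTR1 and AMOTL1 held no motif. Of all 35116 windows of that table, 14% held the motif, 1.37% held at least 2 copies and 0.128% held at least 3. The CTGF and ANKRD1 windows are shown whole because they held several copies, 3 in CTGF and 2 in ANKRD1. Capitals mark the motif in the transcribed direction of the gene. The CTGF window lies at chr6:131951323-131951622 on the minus strand, with the motifs starting 169, 104 and 95 bases before the transcript start. The ANKRD1 window lies at chr10:90921038-90921337 on the minus strand, with the motifs starting 220 and 128 bases before it.
CTGF: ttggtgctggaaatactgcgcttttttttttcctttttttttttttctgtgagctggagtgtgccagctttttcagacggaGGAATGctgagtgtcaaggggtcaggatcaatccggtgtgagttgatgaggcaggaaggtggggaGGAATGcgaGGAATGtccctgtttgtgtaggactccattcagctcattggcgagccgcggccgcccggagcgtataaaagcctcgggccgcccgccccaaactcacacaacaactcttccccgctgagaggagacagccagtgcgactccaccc
ANKRD1: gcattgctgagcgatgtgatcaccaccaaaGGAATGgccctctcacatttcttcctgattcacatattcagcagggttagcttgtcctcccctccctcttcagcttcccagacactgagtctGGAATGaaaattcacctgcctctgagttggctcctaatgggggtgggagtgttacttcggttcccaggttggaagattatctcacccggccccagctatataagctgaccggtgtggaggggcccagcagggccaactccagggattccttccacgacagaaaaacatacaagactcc

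The other 4 windows with the motif held 1 copy each and are shown by 30 bases around it, where CATTCC is the motif on the opposite strand. For YAP1 the bases are chr11:102110273-102110302 (plus strand), for LATS2 chr13:21061560-21061589 (minus strand), for AMOTL2 chr3:134374499-134374528 (minus strand) and for AXL chr19:41226531-41226560 (plus strand). The LATS2 motif began at base 10 of the transcript, and the others lay before the transcript start of the window shown. AMOTL2 and AXL each had another window, at chr3:134375368-134375667 and chr19:41218973-41219272, that held no motif. A match is a description of these letters, not evidence of binding.
YAP1: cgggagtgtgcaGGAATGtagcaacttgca
LATS2: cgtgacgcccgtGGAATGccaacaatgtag
AMOTL2: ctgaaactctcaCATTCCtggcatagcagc
AXL: cagactttgcacCATTCCactccctccgct

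The values are FPKM, fragments scaled by the authors to transcript length and to the size of the library. FPKM is a share of a library, so in these bulk samples fewer cells with a transcript and less of it per cell cannot be told apart. The table lists protein-coding genes, its FPKM values summed to 204318 to 209372 per library, and the sequencing depth is unknown. NR1I3 stood at 331, 317 and 316 FPKM in doxycycline cells, against 3.15, 3.01 and 3.56 FPKM in vehicle cells, as the labels say. In the limma test described below, which called 28.8% of all genes (15.2% higher and 13.6% lower), 6 of the 8 hepatocyte markers fell, and their summed FPKM was 708 to 733 in doxycycline cells and 1420 to 1562 in vehicle cells. ALB, albumin, was at 0.373 ± 0.0951 FPKM in doxycycline cells and 1.87 ± 0.0837 FPKM in vehicle cells (mean ± SD, n = 3), a low level for the defining gene of hepatocytes that passed the filter on low values only through the vehicle group, while APOB was at 444 ± 41.7 FPKM with doxycycline and 819 ± 23.6 FPKM with vehicle. The 5 bile duct markers in the table (of 8) summed to 352 to 367 FPKM with doxycycline and 408 to 427 FPKM with vehicle. Of 8 fibroblast markers only PDGFRB and ACTA2 were in the table (sum 16.9 to 18.3 FPKM with doxycycline and 19.1 to 20.2 FPKM with vehicle). ACTA2 was at 16.4 ± 0.780 FPKM with doxycycline and 18.6 ± 0.668 FPKM with vehicle, a limma call (adjusted p = 0.0393) that ended when any 1 library was left out and with the replicate block (range over all alternatives 0.0320 to 0.107). PDGFRB rose to 1.43 ± 0.0327 FPKM with doxycycline, against 0.856 ± 0.0957 FPKM with vehicle, and passed the filter on low values only through the doxycycline group. Of 8 endothelial markers only LYVE1 (0.616 to 0.771 FPKM with doxycycline and 0.182 to 0.299 FPKM with vehicle) was in the table. Of leukocyte markers LYZ fell to 261 ± 7.33 FPKM with doxycycline, against 549.5 ± 24.0 FPKM with vehicle, and CD68 to 5.08 ± 0.618 FPKM with doxycycline, against 8.50 ± 0.211 FPKM with vehicle. CD14, which was not tested, was at 1.92 ± 0.0768 FPKM with doxycycline and 0.0578 ± 0.0256 FPKM with vehicle. Their part in the results below was not tested.

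With doxycycline 7 of the 9 genes rose and none fell (0 fell at an unadjusted limma p below 0.05 as well). ANKRD1 rose 3.52-fold, and YAP1, CYR61 and CTGF rose 1.36-fold to 1.43-fold. AXL, LATS2 and WWTR1 rose 1.10-fold to 1.27-fold, while TEAD1 and AMOTL2 did not pass the test. The test was limma on log2(FPKM + 1), called at an adjusted p (Benjamini-Hochberg over all 10469 genes tested) below 0.05. It called 28.8% of all genes tested, 15.2% higher and 13.6% lower. The median difference on the log2(FPKM + 1) scale, doxycycline minus vehicle throughout, was 0.43 over the 9 genes and 0.01 over all genes tested. Comparisons with all genes tested are descriptions only, since the genes were chosen with earlier results of these data known. The groups did not overlap in 8 of the 9 genes, each higher with doxycycline, as in 47.1% of all genes tested in either direction and 24.8% in that direction. Without vehicle replicate 3, which had a low TEAD1 value, 8 of the 9 genes were called, and without any other 1 library 5 were.

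**Figure D1:**
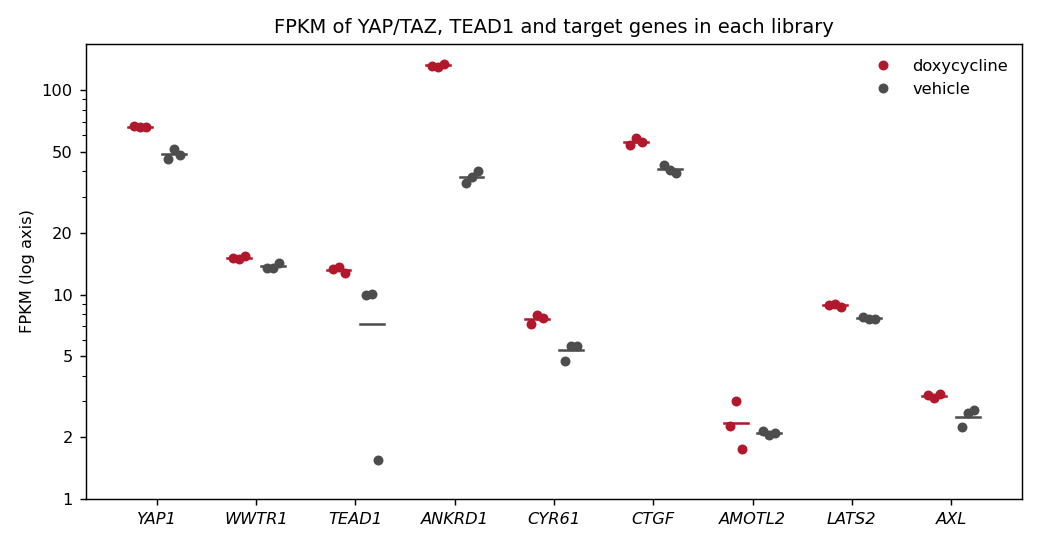
FPKM (log axis) of the 9 genes in the 3 doxycycline libraries (red, left) and the 3 vehicle libraries (grey, right), with a bar at each group mean. ANKRD1 lies at 130.3 to 135 FPKM with doxycycline and at 35.01 to 40.01 FPKM with vehicle, and vehicle replicate 3 stands apart in TEAD1 at 1.55 FPKM.

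Of the coactivators, YAP1 (ENSG00000137693, chromosome 11 of GRCh37, 101981192 to 102104154, plus strand) was the more abundant. It was at 67.1, 65.8 and 66.2 FPKM in doxycycline cells, against 45.9, 51.3 and 48.3 FPKM in vehicle cells. The groups did not overlap, and the doxycycline libraries lay closer together. The difference was 0.45 (SE 0.04, 95% interval 0.34 to 0.55, adjusted p = 8.20e-04). WWTR1 (ENSG00000018408, chromosome 3, 149235022 to 149454501, minus strand), which encodes TAZ, was at 15.1, 14.97 and 15.5 FPKM in doxycycline cells, against 13.5, 13.5 and 14.3 FPKM in vehicle cells. The groups did not overlap, but the nearest libraries were 0.676 FPKM apart. The difference was 0.13 (SE 0.04, interval 0.04 to 0.22, adjusted p = 0.0463), and the call ended in 9 of 14 alternatives (adjusted p 0.0397 to 0.124), among them median-ratio scaling (0.0501), the replicate number as a block (0.0739) and leaving out any library other than vehicle replicate 3.

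On this scale the intervals of YAP1 and WWTR1 did not overlap, with YAP1 showing the larger increase. WWTR1 made up 18.3%, 18.6% and 18.9% of the summed YAP1 and WWTR1 FPKM in doxycycline cells, against 22.7%, 20.8% and 22.8% in vehicle cells. The share was lower in every doxycycline library than in every vehicle library. Its difference was -3.53 percentage points (exact two-sided permutation p = 0.1, the smallest that 3 against 3 libraries allow).

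TEAD1, the DNA-binding partner among the 10 genes (ENSG00000187079, chromosome 11, 12696138 to 12966030, plus strand), was at 13.4, 13.7 and 12.7 FPKM in doxycycline cells, against 9.91, 10.01 and 1.55 FPKM in vehicle cells. The groups did not overlap, but vehicle replicate 3 was 6.39 times below the lower of the other vehicle libraries. With all libraries the difference was 1.08 with an interval of -0.31 to 2.47 (SE 0.57, adjusted p = 0.212), so TEAD1 did not pass. Without vehicle replicate 3 it was 0.38 (SE 0.05, interval 0.25 to 0.50, adjusted p = 6.70e-03, 3 against 2 libraries, range over all alternatives 6.70e-03 to 0.337), a 1.33-fold higher mean FPKM with doxycycline, at 13.2 ± 0.515 FPKM and 9.96 ± 0.0754 FPKM. The size of the TEAD1 difference and its call therefore both depend on 1 library.

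The low TEAD1 value was not shared by the genes around it. The 5 other genes of the table within 1 Mb of TEAD1 were at 0.984 to 1.12 times the mean of vehicle replicates 1 and 2 in vehicle replicate 3. A drop of this kind was rare but not confined to that library. Of the 10469 genes tested, 27 (0.258%) had a lowest library at 0.25 times the next lowest or less, a limit set after the TEAD1 values were seen. The lowest library was vehicle replicate 3 in 7 of them and each other library in 2 to 6. Why TEAD1 was low there was not tested.

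With all libraries none of the other TEAD genes passed the limma test, although TEAD2 was higher and TEAD3 lower at an unadjusted p below 0.05. Without vehicle replicate 3 the called genes of the YAP, TAZ and TEAD complex went from 3 to 5, with TEAD1 and another TEAD gene added. TEAD4 had the highest FPKM of the family, at 24.6, 25.6 and 23.3 FPKM in doxycycline cells and 23.9, 24.99 and 24.6 FPKM in vehicle cells. Its difference was -0.0018 with an interval of -0.11 to 0.10. TEAD2 was at 7.44 ± 0.885 FPKM with doxycycline and 5.66 ± 0.716 FPKM with vehicle (difference 0.34, interval 0.08 to 0.60, adjusted p = 0.0617). TEAD3 was at 6.63 ± 0.322 FPKM with doxycycline and 7.25 ± 0.0921 FPKM with vehicle (difference -0.11, adjusted p = 0.121). TEAD1 made up 26.3%, 25.6% and 24.8% of the summed FPKM of the 4 genes in doxycycline cells, against 21.3%, 21.2% and 3.88% in vehicle cells. The mean share differed by 10.1 percentage points (exact permutation p = 0.1), and by 4.33 points without vehicle replicate 3 (exact permutation p = 0.2). Each p is the smallest that its number of libraries allows.

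**Figure D2:**
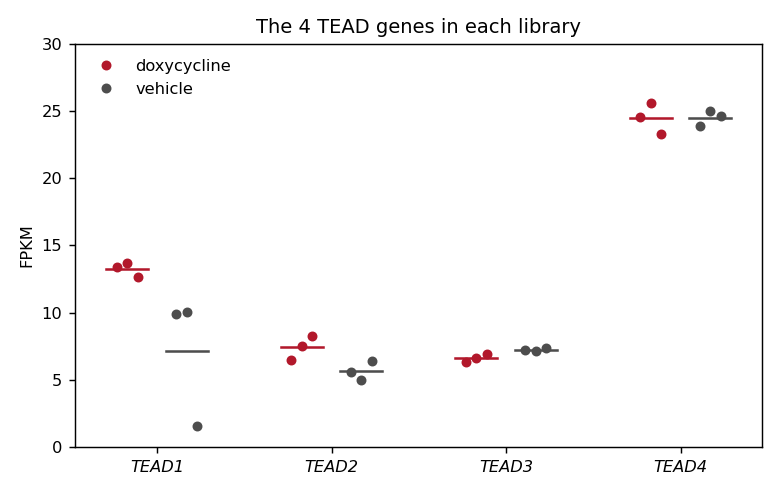
FPKM of TEAD1 to TEAD4 in the 3 doxycycline libraries (red, left) and the 3 vehicle libraries (grey, right), with a bar at each group mean. TEAD4 is the highest in every library at 23.3 to 25.6 FPKM, and the lowest point is TEAD1 in vehicle replicate 3 at 1.55 FPKM.

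Among the target genes ANKRD1 stood apart. It encodes a cardiac ankyrin repeat protein of muscle sarcomeres and nuclei, and is among the genes most often used to report YAP and TAZ activity. ANKRD1 (ENSG00000148677, chromosome 10, 92671853 to 92681033, minus strand) was at 131, 130.3 and 135 FPKM in doxycycline cells, against 35.01, 37.5 and 40.01 FPKM in vehicle cells. Each doxycycline library was more than 3 times each vehicle library. The difference was 1.79 (SE 0.05, interval 1.67 to 1.91, adjusted p = 1.15e-05). The log2(FPKM + 1) scale, which understates the change of weakly expressed genes, placed the ANKRD1 increase at number 19 of the 10469 genes tested. Its interval did not overlap that of any other called gene of the 9. It was the third most abundant of the 9 in vehicle cells, after YAP1 and CTGF, and the most abundant in doxycycline cells.

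CYR61 and CTGF encode matricellular proteins of the CCN family that bind integrins. CYR61 (ENSG00000142871, chromosome 1, 86046444 to 86049645, plus strand) was at 7.15, 7.97 and 7.71 FPKM in doxycycline cells, against 4.76, 5.62 and 5.61 FPKM in vehicle cells. Its difference was 0.45 (SE 0.07, interval 0.27 to 0.63, adjusted p = 6.33e-03). CTGF (ENSG00000118523, chromosome 6, 132269316 to 132272513, minus strand) was at 53.9, 58.0 and 55.5 FPKM in doxycycline cells, against 43.1, 40.7 and 39.4 FPKM in vehicle cells. Neither gene overlapped between the groups. The difference of CTGF was 0.43 (SE 0.04, interval 0.32 to 0.54, adjusted p = 1.09e-03), near that of CYR61, although its FPKM was higher than that of CYR61 in every library. Of the other 4 CCN genes listed none was in the table, and they were not analysed here.

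LATS2 and AMOTL2 are targets that restrain YAP and TAZ in turn, LATS2 as a kinase and AMOTL2 as an angiomotin. LATS2 (ENSG00000150457, chromosome 13, 21547171 to 21635686, minus strand) was at 8.92, 9.02 and 8.72 FPKM in doxycycline cells, against 7.75, 7.61 and 7.56 FPKM in vehicle cells. The increase was small beside that of ANKRD1 but larger than the spread between libraries, with a difference of 0.19 (SE 0.04, interval 0.10 to 0.28, adjusted p = 0.0107). AMOTL2 (ENSG00000114019, chromosome 3, 134074716 to 134094321, minus strand) was at 2.27, 3.01 and 1.75 FPKM in doxycycline cells, against 2.14, 2.05 and 2.11 FPKM in vehicle cells. The groups overlapped, since doxycycline replicate 3 was the lowest library and doxycycline replicate 2 the highest. The difference was 0.09 with an interval of -0.24 to 0.42 (adjusted p = 0.653), and it turned to -0.05 without doxycycline replicate 2.

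AXL, a receptor tyrosine kinase of the TAM family (ENSG00000167601, chromosome 19, 41725108 to 41767671, plus strand), was at 3.23, 3.13 and 3.26 FPKM in doxycycline cells, against 2.24, 2.62 and 2.72 FPKM in vehicle cells. The groups did not overlap, and vehicle replicate 1 was the lowest library. The difference was 0.26 (SE 0.07, interval 0.10 to 0.42, adjusted p = 0.0320). This call ended in 6 of 13 alternatives (adjusted p 0.0260 to 0.0886), the replicate number as a block (0.0709) and leaving out any library other than vehicle replicate 3 (0.0553 to 0.0886).

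**Figure D3:**
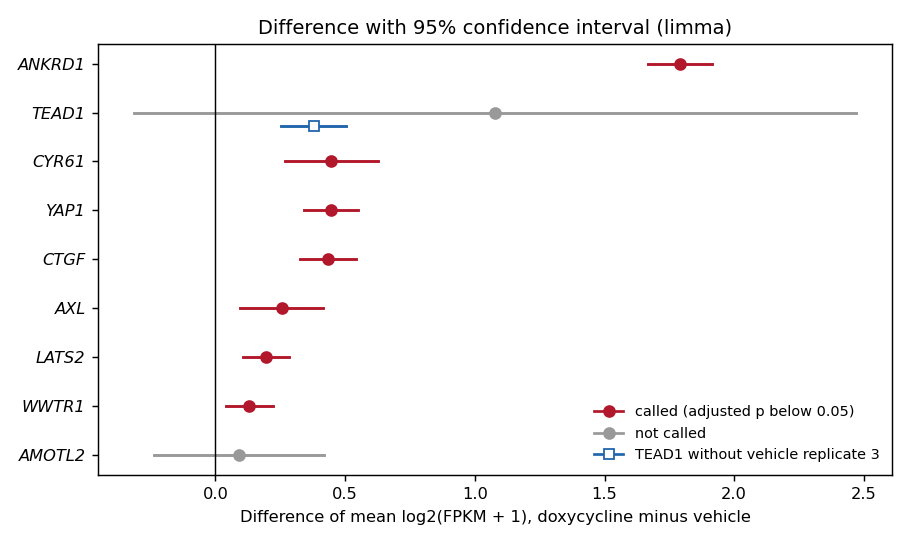
Difference of mean log2(FPKM + 1), doxycycline minus vehicle, with its 95% confidence interval for each of the 9 genes, red where called and grey where not. ANKRD1 is at 1.79, the other called genes at 0.13 to 0.45, and the open blue square shows TEAD1 at 0.38 without vehicle replicate 3.

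The order of levels was much the same in both groups. In doxycycline cells it was ANKRD1, YAP1, CTGF, WWTR1, TEAD1, LATS2, CYR61, AXL and AMOTL2, by mean FPKM from 132 to 2.34. In vehicle cells it was YAP1, CTGF, ANKRD1, WWTR1, LATS2, TEAD1, CYR61, AXL and AMOTL2, from 48.5 to 2.10. In vehicle cells CTGF (39.4 to 43.1 FPKM) and ANKRD1 (35.01 to 40.01 FPKM) overlapped, and TEAD1, through its low library (1.55 to 10.01 FPKM), overlapped LATS2 (7.56 to 7.75 FPKM), CYR61 (4.76 to 5.62 FPKM), AXL (2.24 to 2.72 FPKM) and AMOTL2 (2.05 to 2.14 FPKM). In doxycycline cells no ranges overlapped, and AXL and AMOTL2 came closest, with AMOTL2 at 1.75 to 3.01 FPKM and AXL at 3.13 to 3.26 FPKM.

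The genes with the profile most like that of ANKRD1 were S100A3, ATOH8 and GATA2. Likeness was the root mean square difference over the 6 libraries of log2(FPKM + 1) after the vehicle mean of each gene had been subtracted. It was 0.03 for S100A3, a calcium-binding protein at 70.1 ± 1.13 FPKM with doxycycline and 19.3 ± 1.84 FPKM with vehicle. It was 0.04 for ATOH8, a basic helix-loop-helix transcription factor at 4.71 ± 0.174 FPKM with doxycycline and 0.648 ± 0.0503 FPKM with vehicle. It was 0.08 for GATA2, a zinc finger transcription factor at 13.5 ± 0.128 FPKM with doxycycline and 3.33 ± 0.185 FPKM with vehicle. This likeness holds for a pseudocount of 1, and ATOH8, which passed the filter on low values only through the doxycycline group, rose 7.26-fold by mean FPKM, against 3.52-fold for ANKRD1. With a pseudocount of 0.1 the difference was 2.69 for ATOH8 and 1.82 for ANKRD1.

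The wider pathway was read from 10 lists, given by counts and medians without a test of the list. Apart from the 10 genes the lists hold 112 genes, of which 91 were in the table and 88 were tested. Of these 88, 24 rose and 8 fell, 36.4% in all beside 28.8% of all genes tested (15.2% higher and 13.6% lower), with a median difference of 0.10 beside 0.01. In the transcription complex VGLL4, a TEAD cofactor that competes with YAP, fell to 7.50 ± 0.164 FPKM with doxycycline, against 9.82 ± 0.164 FPKM with vehicle (difference -0.35, adjusted p = 1.26e-03).

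Among the Hippo kinases and their activators 6 of 21 tested genes, LATS2 included, rose and 2 fell, with a median difference of 0.08. That is 38.1% called, beside 28.8% of all genes tested (15.2% higher and 13.6% lower). WWC3, of the KIBRA family that activates LATS kinases, rose to 3.52 ± 0.117 FPKM with doxycycline, against 1.96 ± 0.196 FPKM with vehicle (difference 0.61, adjusted p = 1.16e-03). MAP4K4, a kinase that can phosphorylate LATS kinases, was at 25.0, 27.0 and 24.8 FPKM in doxycycline cells, against 37.9, 35.1 and 38.2 FPKM in vehicle cells (difference -0.52, adjusted p = 7.81e-04). Of its relatives, MAP4K3 was also called lower, at 9.65 ± 0.602 FPKM with doxycycline and 11.4 ± 0.466 FPKM with vehicle (difference -0.22, adjusted p = 0.0334), a call that ended with the replicate block and when any 1 library other than doxycycline replicate 2 was left out (range over all alternatives 0.0210 to 0.0960). MAP4K5 rose, at 10.8 ± 0.226 FPKM with doxycycline and 8.93 ± 0.472 FPKM with vehicle (difference 0.26, adjusted p = 0.0104). MOB1B, a cofactor of LATS kinases, was at 5.61 ± 0.366 FPKM with doxycycline and 4.66 ± 0.260 FPKM with vehicle (adjusted p = 0.0404), a call that ended without doxycycline replicate 2 or 3 or vehicle replicate 1 or 3 (adjusted p 0.102 to 0.112, range over all alternatives 0.0364 to 0.112). LATS1, the paralog of LATS2, was at 4.80 ± 0.251 FPKM with doxycycline and 4.39 ± 0.215 FPKM with vehicle and did not pass (adjusted p = 0.211).

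Of the inhibitors of the Hippo kinases 3 of 13 tested genes rose, 23.1% beside 15.2% of all genes tested. None fell (0 fell at an unadjusted limma p below 0.05 as well), beside 13.6% of all genes tested. In either direction 28.8% of all genes tested were called. The median difference of these inhibitors was 0.12. CTTNBP2NL, a subunit of the STRIPAK phosphatase complex, rose to 3.95 ± 0.227 FPKM with doxycycline, against 2.46 ± 0.130 FPKM with vehicle. The LIM protein LIMD1 rose to 2.64 ± 0.0669 FPKM with doxycycline, against 2.01 ± 0.0954 FPKM with vehicle. The scaffold DLG5 rose to 14.2 ± 0.0369 FPKM with doxycycline, against 11.01 ± 0.384 FPKM with vehicle. AMOT, the founding angiomotin, was at 2.55, 2.68 and 2.64 FPKM in doxycycline cells, against 1.09, 0.799 and 1.10 FPKM in vehicle cells (difference 0.86, adjusted p = 5.17e-04). With a vehicle mean of 0.998 FPKM, AMOT passed the filter on low values only through the doxycycline group. Its paralog AMOTL2 did not pass the limma test. The difference between these 2 angiomotins was not tested.

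A 22-gene signature of YAP and TAZ targets, which contains 6 of the 9 genes, had 16 tested genes, of which 8 rose and 1 fell (56.2% called). Without the 6, there were 10 tested genes, of which 3 rose and 1 fell (40% called), with a median difference of 0.04. Most of the counted increases were therefore the genes already described. Of all genes tested 28.8% were called, 15.2% higher and 13.6% lower. MYOF, a membrane repair protein, rose to 6.42 ± 0.506 FPKM with doxycycline, against 3.58 ± 0.377 FPKM with vehicle. ASAP1, a GTPase-activating protein, was at 13.7 ± 0.773 FPKM with doxycycline and 10.9 ± 0.659 FPKM with vehicle (adjusted p = 0.0130). F3, tissue factor, was at 6.88 ± 0.334 FPKM with doxycycline and 5.72 ± 0.483 FPKM with vehicle (adjusted p = 0.0467), a call that ended in 7 of 14 alternatives (0.0244 to 0.124). NT5E, the ecto-nucleotidase CD73, was the called gene of the signature that fell, at 10.3, 10.7 and 10.3 FPKM in doxycycline cells and 19.8, 18.2 and 18.4 FPKM in vehicle cells (difference -0.79, adjusted p = 8.60e-05). Of 7 further targets tested, THBS1, thrombospondin, rose to 5.23 ± 0.120 FPKM with doxycycline, against 3.88 ± 0.173 FPKM with vehicle. EDN1, endothelin, fell to 2.67 ± 0.573 FPKM with doxycycline, against 4.52 ± 0.376 FPKM with vehicle.

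**Figure D4:**
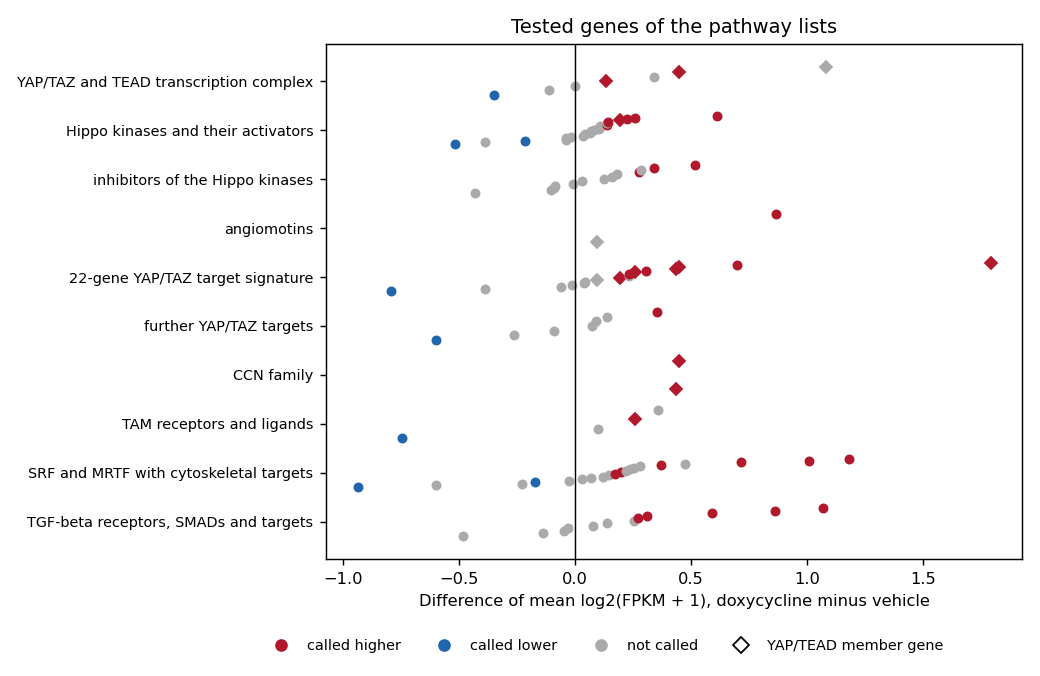
Difference of mean log2(FPKM + 1), doxycycline minus vehicle, for each tested gene of the 10 pathway lists, red where called higher, blue where called lower and grey where not called. Diamonds are the 9 genes of the YAP and TEAD set, with ANKRD1 at 1.79, and lists share some genes.

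AXL belongs with TYRO3 and MERTK to the TAM receptors, whose ligands are GAS6 and PROS1. PROS1, protein S, was at 18.7, 19.1 and 19.0 FPKM in doxycycline cells, against 31.8, 32.4 and 33.1 FPKM in vehicle cells (difference -0.75, adjusted p = 2.82e-05). MERTK was at 14.7 ± 1.72 FPKM with doxycycline and 11.3 ± 1.25 FPKM with vehicle (adjusted p = 0.0509), and TYRO3 at 4.36 ± 0.316 FPKM with doxycycline and 4.09 ± 1.14 FPKM with vehicle (adjusted p = 0.712). AXL had a lower FPKM than MERTK in every library, and GAS6 was not analysed here.

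ANKRD1, CTGF and CYR61 are also known as targets of other regulators, the SRF and MRTF pair that senses actin and the SMADs of TGF-beta signalling. Of 20 tested genes of SRF, MRTF and their cytoskeletal targets 6 rose and 2 fell, with a median difference of 0.18. That is 40% called, beside 28.8% of all genes tested (15.2% higher and 13.6% lower). Of the genes called lower, FILIP1L and ACTA2, ACTA2 lost its call when any 1 library was left out, as given above. TAGLN, transgelin, rose to 7.41 ± 0.671 FPKM with doxycycline, against 2.72 ± 0.371 FPKM with vehicle, and TAGLN2 to 23.04 ± 1.59 FPKM with doxycycline, against 10.96 ± 0.832 FPKM with vehicle. MYL9, a myosin light chain, rose to 13.9 ± 1.05 FPKM with doxycycline, against 8.10 ± 0.548 FPKM with vehicle. FILIP1L, a filamin-interacting protein, fell to 7.27 ± 0.808 FPKM with doxycycline, against 14.95 ± 2.99 FPKM with vehicle (difference -0.94, adjusted p = 4.78e-03).

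Of 12 tested genes of TGF-beta receptors, SMADs and targets 5 rose (41.7%) and none fell (0 fell at an unadjusted limma p below 0.05 as well), with a median difference of 0.19. Of all genes tested 28.8% were called, 15.2% higher and 13.6% lower. SKIL, a SMAD corepressor, was at 10.4, 10.9 and 10.4 FPKM in doxycycline cells, against 5.18, 3.08 and 5.64 FPKM in vehicle cells (difference 1.07, adjusted p = 7.22e-03). The inhibitory SMAD7 rose to 10.4 ± 0.820 FPKM with doxycycline, against 5.23 ± 0.187 FPKM with vehicle. BAMBI, a decoy receptor, rose to 123 ± 0.520 FPKM with doxycycline, against 81.2 ± 1.76 FPKM with vehicle, and SMAD3 to 11.4 ± 0.246 FPKM with doxycycline, against 8.98 ± 0.215 FPKM with vehicle. Which of these regulators bears on the 9 genes was not tested.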

How the data were processed

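The 6 libraries were made from poly(A) RNA with a strand-specific kit, per the labels' protocols. Tools named in the submitters' processing notes are HISAT2, StringTie, cutadapt and FastQC, with build GRCh37; versions, options and the annotation are not given in the sources used here. The deposited FPKM values were computed by the authors, 1 column per library, and no counts were used, so no counting interval is given.

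Of entries sharing a symbol the one with the highest mean was kept (11456 of 11461). The 10469 genes whose FPKM averaged 1 or more were tested on log2(FPKM + 1) with limma 3.58.1 (R 4.3.3), group as the only term, variance trend, two-sided, Benjamini-Hochberg adjustment. Folds are ratios of mean FPKM. Log2 differences understate the change of weakly expressed genes. Within-library shares were tested by exact permutation (scipy 1.17.1). The fit was tested on simulated data. Alternatives were pseudocounts of 0.1 and 0.5, no filter, a minimum of 5, median-ratio scaling, quantile normalization, no trend, the replicate number as a block and leaving out each library.

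Named beside the 10 genes and NR1I3 were up to 4 called genes a list with the largest absolute difference and the 3 genes most like ANKRD1 in profile. TEAD2 to TEAD4, LATS1, MAP4K3, MERTK, TYRO3 and the cell type markers named singly were added after their values were seen. The genes and lists were chosen with earlier results of these data known. Promoter windows came from RefSeq (GRCh38.p14) by symbol. The result of 1 marker gene is not reported here.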

Additional observations from a re-analysis of the deposited data

How the results depend on the processing

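Over the 14 alternatives 5 to 8 of the 9 genes were called, 25 to 32 of the pathway list genes and 2203 to 3267 of all genes tested. The number of genes tested was not the same throughout. The lows of 25 and 2203 came with a minimum mean FPKM of 5, which 6469 genes reached. The high of 3267 came without a filter, over 11456 genes. YAP1, ANKRD1, CYR61, CTGF and LATS2 kept their direction and their call in every alternative, while WWTR1, AXL and TEAD1 did not, as given with their values. AMOTL2 was not called in any alternative, and its difference ranged from -0.047 (without doxycycline replicate 2) to 0.22 (without doxycycline replicate 3) when 1 library was left out. AMOTL2, AXL, WWC3, CTTNBP2NL, LIMD1, AMOT, MYOF, EDN1 and THBS1 were not tested with a minimum mean FPKM of 5. Of the 24 genes named from the lists 21 kept their call in each alternative that tested them, and MOB1B, F3 and ASAP1 lost it in at least 1 alternative.

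No clear pairing of the libraries by replicate number was seen, although with so few libraries a pairing could be missed. The deviations from the group means correlated at 0.015, -0.0321 and 0.0917 between libraries of the same number, and not every library correlated best with its own number. With the replicate number as a block 2343 genes were called instead of 3012, and 5 of the 9 genes instead of 7, without WWTR1 and AXL. The block also ended the call of ASAP1 (adjusted p = 0.0533, range over the alternatives 0.0118 to 0.0533). Leaving out 1 library moved the difference in the TEAD1 share over 4.33 to 13.02 percentage points and that in the WWTR1 share over -4.17 to -3.17. Depth is unknown, so no counting error can be given for weakly expressed genes such as AMOTL2 and AXL.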
